A study of Mus musculus with 12 samples.

Results

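The nuclei described here are astroglia of the newborn mouse forebrain that carry RNA of Tnc, Fabp7, Bcan or Aldh1l1. They were picked from the UMIs (unique molecular identifiers, each standing for 1 captured RNA molecule) of single nuclei. A nucleus was kept when it held 800 to 6000 UMIs, 300 to 3000 detected genes and at most 1% of UMIs from mitochondrial genes, which left 101797 of 126684 barcodes. Of these, 5361 nuclei (5.27%) had at least 2 UMIs of Slc1a3, at least 3 UMIs in sum of Tnc, Fabp7, Bcan and Aldh1l1, more UMIs of those genes than of Veph1, Hgf, Lhcgr and Shroom3, and at most 3 UMIs of the cycling genes Mki67, Top2a, Cenpf, Cenpe, Kif11 and Aspm. The 5361 nuclei came from 3148 WT and 2213 Het nuclei, with 254 to 638 of them in a library.

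The series profiled single nuclei of forebrain at postnatal day 1 (P1) from mice carrying a frameshift allele of Myt1l, S710fsX, on a C57BL/6 background, and asked how MYT1L deficiency alters cell types around birth. MYT1L is a zinc finger transcription factor of neurons, and Het mice carry 1 mutated copy in every cell. There were 8 WT libraries (5 male, 3 female) and 4 Het libraries (3 male, 1 female), each from 1 animal and all of 1 age, and no other treatment or allele is named. The p-values below therefore measure the spread between animals, but the labels do not give the litter of an animal. Libraries held 15439429 to 40784144 UMIs, and 45278 filtered nuclei carried excitatory and 25038 inhibitory neuron markers, the major neuron classes of the forebrain. No barcode was shared between libraries, and every library occupied its own 8 of 96 reverse transcription wells.

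Astroglia around birth descend from radial glia, the progenitors that line the ventricle and first produce neurons. As neurogenesis ends, radial glia leave the ventricle, divide in the cortex and striatum and become astrocytes, while others stay as the ependymal lining or as stem cells of the subventricular zone. Slc1a3 encodes the glutamate transporter GLAST, and Fabp7 encodes brain lipid binding protein, both made by radial glia and young astrocytes. Tnc encodes tenascin-C and Bcan encodes brevican, both extracellular matrix proteins, and Aldh1l1 encodes a folate enzyme used as an astrocyte marker.

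Tnc carried most of the selection. It was detected in 93.3% of the nuclei and gave 70.2% of the summed UMIs of Tnc, Fabp7, Bcan and Aldh1l1. Bcan was detected in 68.4% of nuclei, Fabp7 in 58.7% and Aldh1l1 in 28.2%. All 4 genes were seen together in 12.1% of nuclei, and 11.5% of nuclei were admitted on 1 gene alone. The median nucleus held 4 UMIs of Slc1a3 and 7 of the summed selecting genes. These values follow from the rule and are given as a description.

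The values of the nuclei next to the thresholds are given once, as a description. Among the 686 nuclei admitted with a sum of about 3 UMIs, Slc1a2 (the glutamate transporter GLT-1, not used by the rule) was seen in 48.7% after every nucleus was thinned to 800 UMIs, against 42.9% of the 742 nuclei kept out with about 2 UMIs, and Gli3, a Hedgehog pathway transcription factor gene, in 29.0% against 22.6%. Among the 989 nuclei with 2 UMIs of Slc1a3 the share was 48.9%, against 41.8% of the 873 nuclei kept out with 1 UMI. Slc1a2 was seen in 53.9% and Gli3 in 31.1% of all chosen nuclei. Of 223 nuclei kept out because the opposing genes were not outweighed, 46.2% held Slc1a2 and 47.1% Gli3, and of 313 kept out by the cycling genes alone, 37.1% and 30.4%.

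The start sites of Tnc and Fabp7 are shown because both genes choose these nuclei and because nuclear factor I proteins, such as the product of Nfia, are known regulators of gliogenesis. RefSeq start sites (GRCm38.p6, 250 bases before to 50 after the start) matched all 5 selecting genes. Capitals mark TTGGC, the core letters bound by nuclear factor I, on either strand. It was found in the Fabp7 window and in 1 of the Tnc windows, and in none of those of Slc1a3, Bcan and Aldh1l1. The same letters occur in 46.7% of all 32851 windows, so their presence is a description of the sequence and no sign of a site. The Tnc window is chr4:64046887-64047186 on the minus strand and the Fabp7 window is chr10:57784673-57784972 on the plus strand.
Tnc: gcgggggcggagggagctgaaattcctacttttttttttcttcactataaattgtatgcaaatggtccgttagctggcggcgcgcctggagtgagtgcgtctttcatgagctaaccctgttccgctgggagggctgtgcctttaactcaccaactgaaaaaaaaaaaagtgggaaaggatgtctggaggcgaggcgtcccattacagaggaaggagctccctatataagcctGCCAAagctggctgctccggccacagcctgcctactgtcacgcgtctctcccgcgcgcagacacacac
Fabp7: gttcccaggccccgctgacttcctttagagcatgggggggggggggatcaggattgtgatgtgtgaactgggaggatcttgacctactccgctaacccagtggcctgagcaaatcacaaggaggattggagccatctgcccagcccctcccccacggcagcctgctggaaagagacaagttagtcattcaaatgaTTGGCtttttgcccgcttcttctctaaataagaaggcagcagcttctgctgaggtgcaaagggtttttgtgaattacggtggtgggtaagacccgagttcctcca

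Genes that the rule did not use also marked the nuclei as astroglia. After thinning to 800 UMIs, Slc4a4 (a sodium bicarbonate cotransporter) was seen in 55.5% of the chosen nuclei and in 4% of the 45278 nuclei with excitatory neuron markers, where such RNA serves as a measure of background. Ptprz1, a receptor phosphatase of radial glia, was seen in 96.1% against 22.3%. Nfia was seen in 82.9% against 21.5%, and Gli3 in 31.1% against 1.11%. Before thinning, the shares of Slc1a2, Slc4a4 and Gli3 were 75.4%, 74.3% and 50.5% in chosen nuclei and 12.4%, 10.5% and 2.87% in excitatory nuclei, at median depths of 1599 and 2555 UMIs.

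Markers of mature astrocytes were sparse. The water channel gene Aqp4 was seen in 6.75% of thinned chosen nuclei and in 0.0994% of excitatory nuclei. Glul, which encodes glutamine synthetase, was seen in 17.4% against 1.37%. Gfap, an intermediate filament gene of mature and ventricular astrocytes, was seen in 2.69% against 0.0375%. The summed level of S100b stayed at 0.820 CPM, where CPM is the UMIs of a gene in each 1000000 UMIs summed over the chosen nuclei of a library. CPM is not divided by gene length and is compared only within a gene.

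Neuronal RNA was also present. Rbfox1, a neuronal splicing factor gene, was seen in 36.6% of thinned chosen nuclei and in 96.4% of excitatory nuclei. At least 3 UMIs of the excitatory, inhibitory or oligodendrocyte lineage markers were held by 31.3% of the chosen nuclei, and 10.6% resembled simulated doublets against 3.73% of all filtered nuclei. These nuclei were kept in the main values, and their shares by genotype are given below with the depth. Microglial genes Cx3cr1 and P2ry12 were seen in 0.317% and 0.485% of thinned chosen nuclei against 0.274% and 0.172% of excitatory nuclei.

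Against all other filtered nuclei, 1681 of 4131 genes with at least 50 CPM in either (40.7%) were higher in the chosen nuclei in 12 of 12 libraries and 1055 (25.5%) were lower, which is given as a description. The widest gaps included Acsbg1, an enzyme gene of fatty acid activation, at 182 against 7.66 CPM and the transcription factor gene Rfx4 at 266 against 16.9 CPM. Ptprz1 was at 8137 ± 784 CPM (SD, n = 12) against 646 CPM, Aqp4 at 86.3 against 3.09 CPM and Hepacam, a glial adhesion gene, at 161 against 10.5 CPM. Megf10, an engulfment receptor gene, was at 207 against 15.1 CPM.

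The chosen nuclei were next set against 522 nuclei of the same libraries in which Veph1, Hgf, Lhcgr and Shroom3 outweighed Tnc, Fabp7, Bcan and Aldh1l1 (Veph1 astroglia). Both populations were chosen by their own UMIs, so the levels are described without a test. Of 4171 genes with at least 50 CPM in either population, 159 (3.81%) were higher in the chosen nuclei in all 12 libraries and 114 (2.73%) were lower. The Veph1 astroglia were shallow in number, with 15 to 97 nuclei in a WT library, so a gene needed a wide gap to keep 1 sign in every library.

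The potassium channel gene Kcnj6 (153 against 12.3 CPM) and the phospholipase gene Pla2g3 (66.0 against 5.31 CPM) had the widest gaps among the genes that were higher. The metabotropic glutamate receptor genes Grm3 and Grm5 stood at 2329 ± 614 CPM and 2825 CPM (SD for Grm3 over 12 libraries) against 453 ± 142 and 577 CPM in the Veph1 astroglia. Lrig1, a negative regulator of EGF receptor signalling, stood at 398 ± 65.1 CPM against 63.2 ± 27.3 CPM. Etv4, a transcription factor gene induced by FGF signalling, stood at 132 against 19.2 CPM, and Id3, a target of BMP signalling, at 114 against 22 CPM.

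On the fixed pathway lists, the receptor gene Egfr was at 389 against 160 CPM, Fgfr3 at 114 against 43.6 CPM, Bmpr1a at 459 against 205 CPM and Bmpr1b at 787 against 377 CPM, each higher in 12 of 12 libraries. Of 23 FGF and EGF genes, 4 were higher and 1 lower in all 12, beside 3.81% and 2.73% of all genes of at least 50 CPM. That list summed to 15264 CPM in the chosen nuclei and to 19159 CPM in the Veph1 astroglia. Among transporters, Slc4a4 was at 1179 ± 155 against 436 CPM and Slc6a11, which encodes the GABA transporter GAT-3, at 391 against 162 CPM, again in 12 of 12 libraries. Slc1a2 was at 1001 ± 203 against 705 CPM and was higher in 11 of 12. Olig2, a transcription factor gene of glial progenitors, was at 39.6 against 4.23 CPM.

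The 20 lower genes with the widest gap included genes of motile cilia, with Cfap44 at 41.4 against 265 CPM, Cfap54 at 34.5 against 223 CPM, Spef2 at 21.7 against 132 CPM and the dynein gene Dnah6 at 8.20 against 81.7 CPM. Of the 13 ependymal and choroid plexus markers, 3 were lower in 12 of 12 libraries and 0 higher, and radial glial genes and gliogenic transcription factors went both ways. Of 29 radial glial genes, 7 were higher, the rule's Slc1a3, Tnc and Fabp7 among them, and 5 lower in 12 of 12 libraries (median log2 difference 0.19), and of 30 gliogenic transcription factor genes 5 were higher and 2 lower (median 0.32). These counts include members under 50 CPM, unlike the shares of 3.81% and 2.73% over all genes, since 19 and 21 of the members exceeded 50 CPM. Among the lower ones, Gli3 stood at 425 against 676 CPM, Pax6 at 71.7 against 126 CPM, Zbtb20 at 2757 against 4598 CPM and the Notch receptor gene Notch2 at 169 against 366 CPM. Glul (236 against 243 CPM), Apoe (162 against 170 CPM) and Kcnj10 (69.7 against 62.4 CPM) had nearly equal means in both populations. Of the genes named above for gaps to all other nuclei, Megf10 was at 207 against 230 CPM, higher in 4 of 12 libraries. Acsbg1 was at 182 against 133 CPM (8 of 12) and Hepacam at 161 against 126 CPM (10 of 12). Ptprz1 (8137 against 4133 CPM) and Rfx4 (266 against 151 CPM) were higher in 12 of 12, and Aqp4 (86.3 against 29.5 CPM) in 11.

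**Figure D1:**
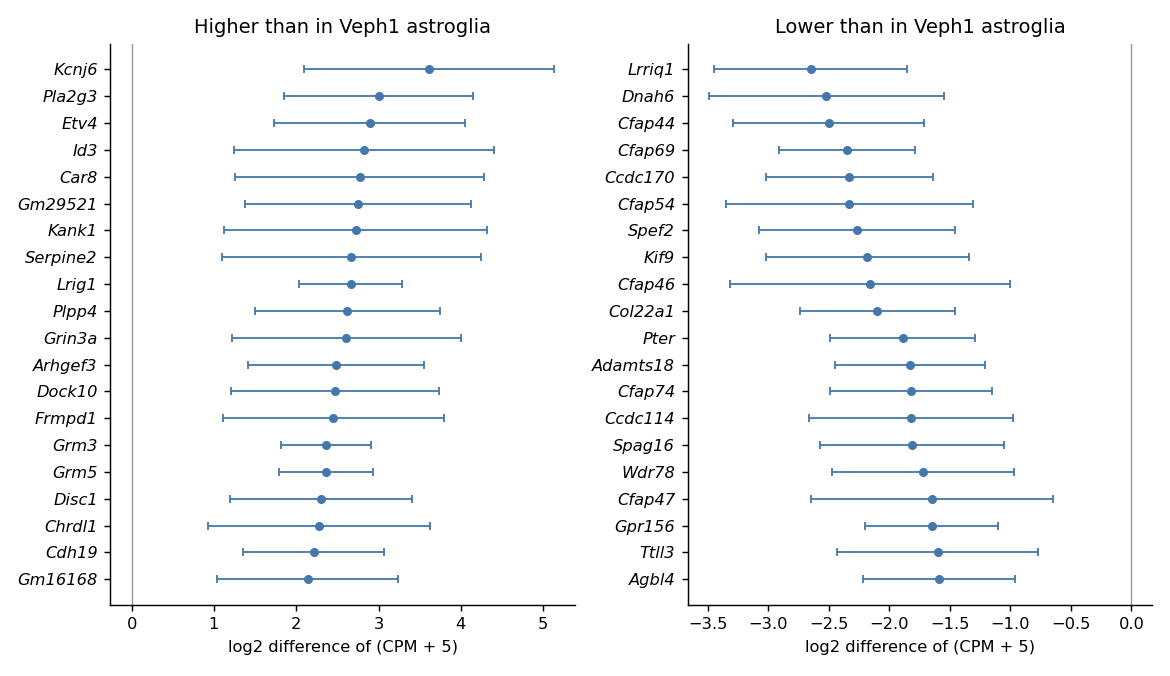
Genes with the widest gap in level between the chosen nuclei and the Veph1 astroglia. Each point is the mean over 12 libraries, and each bar the SD, of the log2 difference of CPM + 5, with 20 genes higher and 20 lower, all with the same sign in every library. Kcnj6, Pla2g3, Etv4, Lrig1, Grm3 and Grm5 lie on the higher side and genes of motile cilia (Cfap44, Cfap54, Spef2, Dnah6) on the lower side.

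Clustering of the chosen nuclei alone gave 13 clusters, which are described by their leading genes and not named as cell types. Cluster 1 (947 nuclei, 17.7%) was led by Car8, Tnfrsf19, Egfr, Grm5 and Grm3. Cluster 2 (629 nuclei) was led by Cdh19, Lyn, Pdgfd and the zinc finger genes Zic4 and Zic1. Cluster 4 (598 nuclei) was led by Gm12239, Meis1, the amino acid transporter gene Slc7a10, Gpc5 and Fgfr3.

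Cluster 5 (567 nuclei, 10.6%) was led by Shroom3, Adamts18 and Veph1, held Pax6 at 207 CPM and held Egfr at 149 CPM, against 915 CPM of Egfr in cluster 1. Cluster 6 (518 nuclei) was led by Pla2g3, Smad6 and Col9a1, and held Tnc at 9666 CPM, where the other clusters ranged from 912 to 4589 CPM. Kcnj6 and Pla2g3, which had the widest gaps to the Veph1 astroglia among the higher genes, stood there at 837 and 540 CPM. In the other chosen nuclei they stood at 98.2 and 30.4 CPM. Cluster 7 (482 nuclei) was led by Lhcgr and Camk2a, and cluster 9 (293 nuclei) by Dtl, Rad51b, Top2a, Hells and Brca1, genes of DNA replication and repair. Top2a and Mki67, genes of the rule's cycling cutoff, stood in cluster 9 at 229 and 161 CPM. Top2a was at 8.36 CPM in the other chosen nuclei. The cutoff of 3 UMIs thus left RNA of cycling genes in the chosen nuclei. Cluster 11 (109 nuclei, 2.03%) was led by the long noncoding RNA genes Gm29478, Otx2os1 and Rmst and by the ciliary genes Cfap44, Spef2 and Dnah12.

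The remaining clusters were deep or rare. Cluster 3 (603 nuclei) had Arpp21 and Dpp10 among its leading genes, had a median of 3541 UMIs and 54.7% of its nuclei resembled simulated doublets. Cluster 8 (369 nuclei) was led by Adarb2, Rarb, Reln and Erbb4, had a median of 3424 UMIs and 48.2% resembled doublets. Cluster 10 (141 nuclei) was led by Lhfpl3, Pdgfra, Myt1 and Cspg4, genes of oligodendrocyte progenitors, at 2489 UMIs. Cluster 12 (71 nuclei) was led by Cped1, Bmp6, Ptgds and Col3a1, and cluster 13 (34 nuclei) by Mybpc1 and Igf1.

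Leaving out clusters 3, 8, 10, 12 and 13, a choice made after the clusters were seen, kept 4143 nuclei (77.3%). In these, 0.459% resembled doublets and 15.5% held other cell type markers, at a median of 1430 UMIs. The remaining 1218 nuclei are part of every value below unless their absence is stated.

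**Figure D2:**
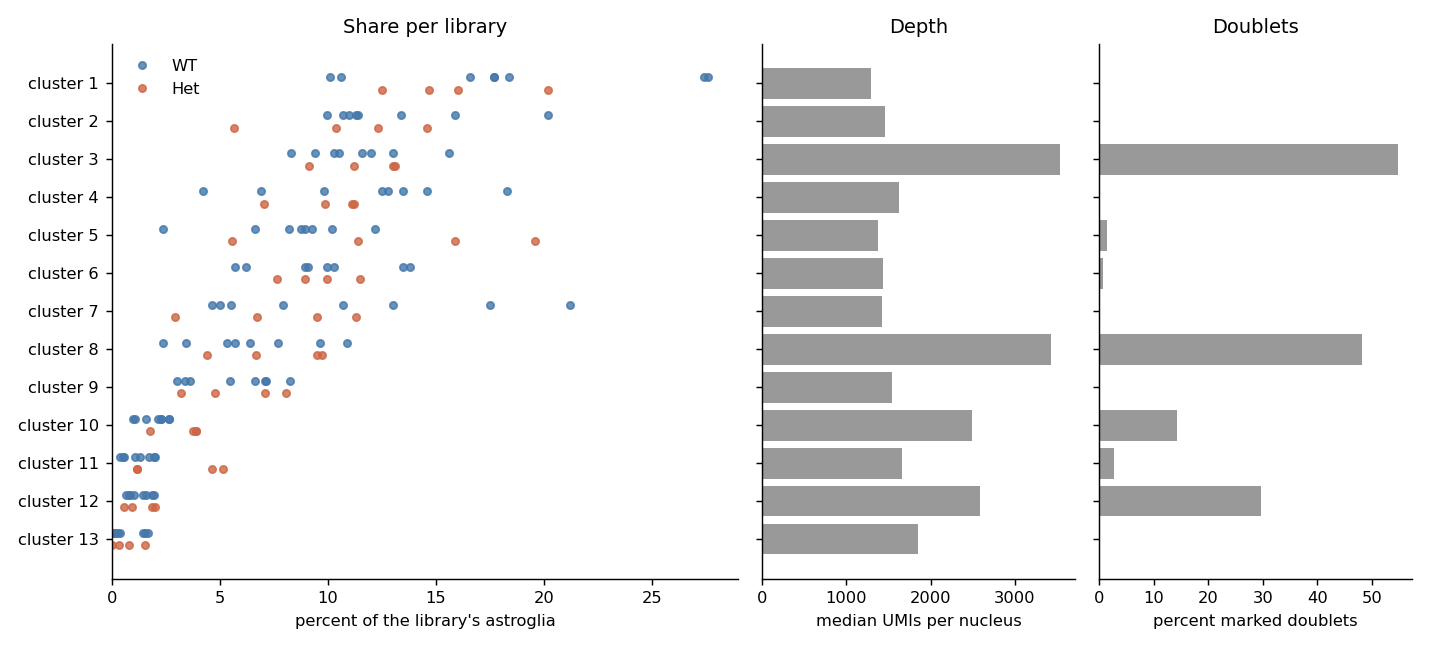
Clusters among the chosen nuclei. The panels give each cluster's share of the chosen nuclei in every library by genotype, its median UMIs per nucleus and the percent of its nuclei that resembled simulated doublets. Clusters 3 and 8 stand apart with medians of 3541 and 3424 UMIs and 54.7% and 48.2% of doublet-like nuclei.

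The share of these astroglia among filtered nuclei did not differ between WT and Het forebrain beyond the spread of the libraries. Over the 8 WT libraries the lowest share was 4.30%, the median 5.33% and the highest 6.31%, and the Het shares were 5.38%, 5%, 4.96% and 5.71% in Het 1 to Het 4. All 4 Het values lay within the WT range. The means were 5.28% ± 0.793 (SD, n = 8) and 5.26% ± 0.355 (SD, n = 4), a difference of -0.0213 percentage points (exact permutation test over libraries, two-sided, p = 0.966, smallest possible p = 0.00202). The spread over the wells of a library, 0.956 percentage points on average, stood beside 0.705 percentage points from counting alone in a well and 0.659 percentage points over the 12 libraries.

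Neighbouring populations did not differ beyond their spread either. The Veph1 astroglia made up 0.504% ± 0.244 (SD, n = 8) of filtered WT nuclei and 0.476% ± 0.15 (SD, n = 4) of Het nuclei (exact permutation test, p = 0.871). Cycling Slc1a3 nuclei, here those with more than 3 UMIs of the cycling genes, made up 0.664% and 0.638% (exact permutation test, p = 0.78). Of all nuclei with at least 2 UMIs of Slc1a3, 44.6% ± 3.19 (SD, n = 8) met the rule in WT and 40.5% ± 3.57 (SD, n = 4) in Het (exact permutation test, p = 0.0727).

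Depth did not separate the genotypes within the chosen nuclei. Median UMIs per nucleus were 1396 at the lowest, 1593 in the median and 1899 at the highest of the WT libraries, and 1623, 1591, 1524 and 1473 in Het 1 to Het 4. The means were 1607 ± 146 (SD, n = 8) and 1553 ± 67.3 (SD, n = 4), with all Het values inside the WT range (exact permutation test, p = 0.525). Over all filtered nuclei, to which the rule was applied, the library medians averaged 2056 UMIs in WT and 1921 UMIs in Het (exact permutation test, p = 0.0929). Nuclei with other cell type markers were 29.6% ± 4.04 of the chosen WT nuclei and 33.7% ± 7.64 of the Het nuclei (SD, n = 8 and 4, exact permutation test, p = 0.228). Doublet-like nuclei were 10.3% and 11.2% (exact permutation test, p = 0.493). Het libraries held more filtered nuclei, 10566 against 7441 on average (exact permutation test, p = 0.0364), and so gave deeper sums.

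**Figure D3:**
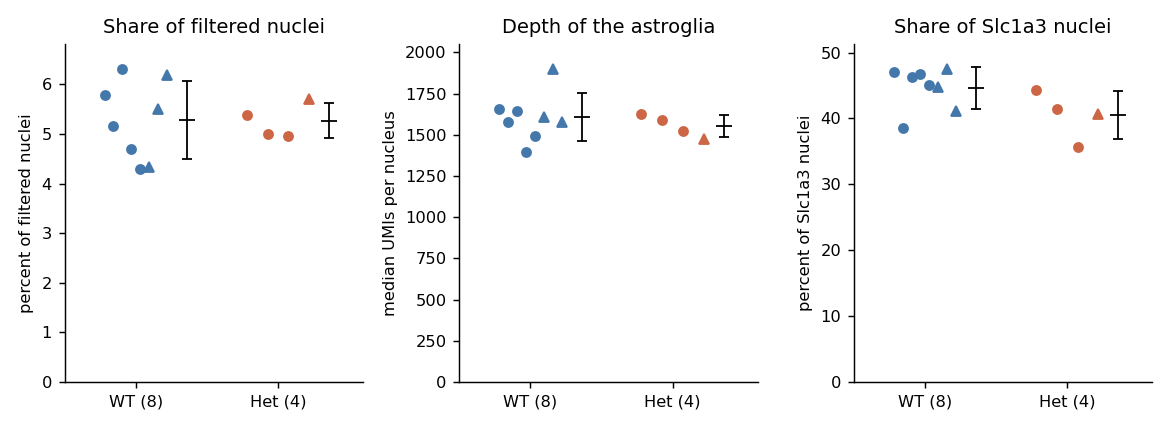
Share and depth of the chosen nuclei by library. The panels give the percent of filtered nuclei that met the rule, the median UMIs per chosen nucleus and the percent of Slc1a3 nuclei that met the rule, each point 1 library (circles male, triangles female) with the group mean and SD. Het shares of filtered nuclei (4.96% to 5.71%) lie inside the WT range (4.30% to 6.31%).

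For gene levels, the UMIs of the chosen nuclei were summed per library and compared by edgeR's quasi-likelihood test. In such sums, more nuclei of 1 kind and more RNA per nucleus cannot be told apart. No gene of the 9334 tested passed an adjusted p under 0.05 with a log2 difference of at least 0.2 (0% called), and the smallest adjusted p was 0.103. At an unadjusted p under 0.05 there were 591 genes (6.33%), of which 309 (3.31%) were higher in Het and 282 (3.02%) lower. DESeq2 on the same sums called 1 gene, Hs6st2. The CPM of the 4 Het and the 8 WT libraries did not overlap for 37 genes (0.396%).

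The genes used by the rule have levels bounded by it, so their values by genotype are a description. Slc1a3 was at 2306 CPM in the lowest, 2724 in the median and 3854 in the highest WT library, and at 2499, 2553, 2318 and 3188 CPM in Het 1 to Het 4. Tnc was at 2833, 3265 and 4468 CPM in WT and at 3111, 2981, 3595 and 3343 CPM in Het. For both genes all Het values lay inside the WT range. Aldh1l1 was at 174, 212 and 242 CPM in WT and at 183, 178, 144 and 219 CPM in Het, where Het 3 alone lay below the WT range. Fabp7 had a median of 542 and a maximum of 724 CPM in WT and was at 606, 524, 452 and 506 CPM in Het, and Bcan ranged from 589 to 798 CPM in WT and was at 741, 614, 646 and 684 CPM in Het. Of the opposing genes, Veph1 averaged 84.8 CPM in WT and 108 CPM in Het, Hgf 100 and 92.2, Lhcgr 24.9 and 28, and Shroom3 72.4 and 81.7 CPM.

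Myt1l itself was low in these nuclei and not lower in Het. It was at 382 CPM in the lowest, 434 in the median and 661 in the highest WT library, and at 424, 660, 549 and 562 CPM in Het 1 to Het 4. All Het values lay inside the WT range, and the log2 difference (Het minus WT, ± SE) was 0.25 ± 0.13 (edgeR adjusted p = 0.806). It was 0.15 without Het 2 and 0.43 without clusters 3, 8, 10, 12 and 13. Over all other filtered nuclei its level was 1517 CPM, and within the chosen nuclei it was 1346 CPM in cluster 3, 1114 in cluster 8 and 361 in cluster 10, against 71.4 to 207 CPM in the others. A frameshift need not lower the RNA of its gene, so this level does not check the genotype labels. Gm20208 and C630031E19Rik overlap Myt1l on the other strand, and no source used here says whether reads were assigned by strand.

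The 15 genes with the smallest p that kept their sign with each library left out are given next, none of them called. Cfap43 (chr19:47736857-47919287, mm10), a cilia and flagella associated gene, was at 4.02 CPM in the lowest, 6.01 in the median and 9.60 in the highest WT library, and at 14.5, 18.1, 21.1 and 15 CPM in Het 1 to Het 4. Every Het library lay above every WT library, with a log2 difference of 1.46 ± 0.26 (edgeR adjusted p = 0.103). Cfap43 overlaps Itprip on the same strand and Gsto1 and Gsto2 on the other.

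Efhb, another ciliary gene, was at 4.61, 11.3 and 15.6 CPM (lowest, median and highest) in WT and at 12.3, 32.5, 31.8 and 29.4 CPM in Het. Het 1 lay within the WT range and the other three Het libraries above it (log2 difference 1.23 ± 0.27, edgeR adjusted p = 0.318). Rpgrip1l, a gene of the ciliary transition zone, was at 36.9, 46.8 and 63.1 CPM in WT and at 66.3, 62.4, 71.7 and 67.4 CPM in Het, of which Het 2 alone lay inside the WT range (0.49 ± 0.13 on the log2 scale). Cfap299 differed by 1.07 ± 0.29 and the long noncoding RNA gene Gm29478 by 1.20 ± 0.32, with 1 Het library of Cfap299 and 2 of Gm29478 inside the WT range.

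Of the genes with ciliary roles, Cfap43, Efhb, Rpgrip1l and Cfap299 had their highest level in cluster 11, at 210, 182, 229 and 291 CPM, as did Gm29478 at 1109 CPM. Cluster 11 made up 1.20% ± 0.663 (SD, n = 8) of the chosen WT nuclei and 3.05% ± 2.15 (SD, n = 4) of the Het nuclei. The shares of Het 1 to Het 4 were 1.19%, 4.66%, 5.15% and 1.19%, so that Het 2 and Het 3 lay above the WT maximum of 2.02% and the other two inside the WT range. The 13 ependymal and choroid plexus markers, of which 4 were tested, summed to 77.7 to 166 CPM in WT and 114 to 276 CPM in Het, and Foxj1, the regulator of motile cilia, was at 2.52 CPM. Without cluster 11, a choice made after its genes were seen, the log2 difference was 1.06 for Efhb, 0.40 for Rpgrip1l and 0.77 for Gm29478. Cfap43 was then too low to be tested, at 4.02 ± 1.27 CPM (SD, n = 8) in WT and 10.6 ± 5.35 CPM (SD, n = 4) in Het, and so was Cfap299, at 8.48 ± 5.02 and 10.4 ± 0.876 CPM.

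Genes of signalling and the cell surface followed. Hs6st2 (chrX:51387212-51681856), which encodes a heparan sulfate sulfotransferase, was at 83.2, 110 and 141 CPM in the lowest, median and highest WT library and at 158, 189, 188 and 164 CPM in Het. It did not overlap between genotypes (log2 difference 0.62 ± 0.12, edgeR adjusted p = 0.200). Brinp1 (chr4:68761514-68954397), a neural gene inducible by BMP and retinoic acid, was at 68.2, 96.2 and 125 CPM in WT and at 127, 194, 164 and 132 CPM in Het (0.68 ± 0.14, edgeR adjusted p = 0.262). Its highest level was in cluster 10, and that of Hs6st2 in cluster 3. Without clusters 3, 8, 10, 12 and 13 the log2 differences were 0.47 for Hs6st2 and 0.63 for Brinp1.

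Cdon (chr9:35421128-35507652), a coreceptor of the Hedgehog pathway, was at 163, 210 and 225 CPM in WT and at 244, 251, 340 and 243 CPM in Het. Its groups did not overlap (log2 difference 0.41 ± 0.11, edgeR adjusted p = 0.509), its highest level was in cluster 5, and without clusters 3, 8, 10, 12 and 13 the difference was 0.49. Cluster 5 made up 8.32% ± 2.9 (SD, n = 8) of the chosen WT nuclei and 5.59%, 11.4%, 19.6% and 15.9% of those of Het 1 to Het 4, and the part of this share in the differences of Cdon and Dach1 was not tested. St6galnac5 (chr3:152817081-152982246), a ganglioside sialyltransferase gene, was the only one of the 15 that was lower in Het. It was at 593, 678 and 984 CPM in WT and at 594, 522, 377 and 520 CPM in Het, where Het 1 lay just inside the WT range and the others below it (-0.53 ± 0.13, edgeR adjusted p = 0.509). Pigk overlaps St6galnac5 on the other strand.

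The transcription factor genes Dach1, Foxp1 and Ebf1 differed by 0.65 ± 0.16, 0.39 ± 0.11 and 1.09 ± 0.28 on the log2 scale, and the Het values of each overlapped those of WT. Dach1 was at 111, 175 and 256 CPM in WT and at 214, 297, 382 and 241 CPM in Het, with its highest level in cluster 5. Ebf1 was highest in cluster 8, and its difference was 0.45 without the 5 clusters. Epm2a, which encodes the glycogen phosphatase laforin, was at 18.5, 26.4 and 32.9 CPM in WT and at 49.6, 42.3, 39.9 and 40.1 CPM in Het without overlap (0.68 ± 0.15, edgeR adjusted p = 0.318). Kcnh8, a potassium channel gene, differed by 0.62 ± 0.17 without overlap. Gm21860 was at 0, 11.2 and 26.6 CPM in WT and at 45.5, 30.1, 42.1 and 34.3 CPM in Het without overlap (1.55 ± 0.35), and its gene ID was not matched to a position.

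**Figure D4:**
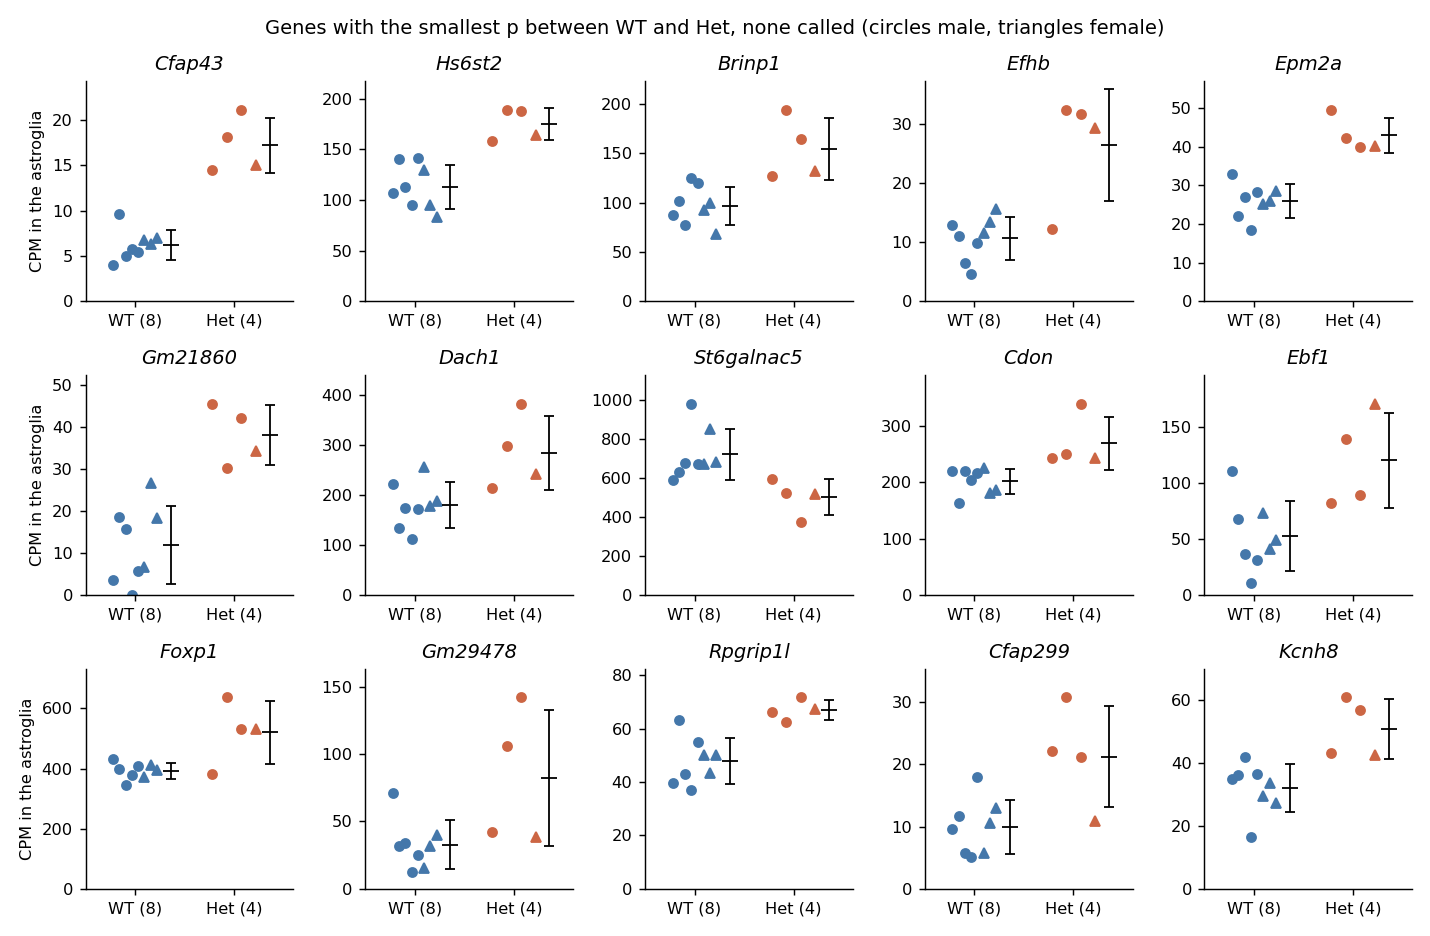
CPM in every library of the 15 genes with the smallest p between genotypes. Each point is 1 library and the bars give the mean and SD of each group; none of the genes passed the threshold. Cfap43, Hs6st2, Brinp1, Epm2a, Gm21860, Cdon and Kcnh8 have every Het library above every WT library, and St6galnac5 is the gene with lower Het values.

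The astroglial gene lists were then read as counts and medians, with 0 genes called on any of them and a median log2 difference of 0.00 over all genes tested. Of all 9334 genes tested, 4761 were below 0. Some lists hold genes of the rule (Slc1a3, Tnc and Fabp7 among the radial glial genes, Slc1a3 in glutamate and GABA handling, Tnc and Bcan among the matrix genes, Fabp7 in lipid and sterol metabolism), whose levels the rule bounds. Genes handling glutamate and GABA had a median of -0.16, with 12 of 14 tested genes below 0. At an unadjusted p under 0.05, 4 of the 14 (28.6%) were lower against 3.02% of all genes. Slc6a11 was at 348, 413 and 577 CPM in the lowest, median and highest WT library and at 361, 318, 247 and 337 CPM in Het (-0.44 ± 0.12, edgeR adjusted p = 0.509). Het 1 lay within the WT range and the others below it. The others were Slc7a11, the cystine transporter gene, Aldh9a1, and Pcx, which encodes pyruvate carboxylase (-0.45 ± 0.13). Of the main glutamate transporter genes, Slc1a3 is given above as a gene of the rule, and Slc1a2 was at 728, 981 and 1355 CPM in WT and at 1072, 935, 847 and 1292 CPM in Het (0.06 ± 0.15).

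Lipid and sterol metabolism, a major task of astrocytes, had a median of -0.13, with 21 of 27 tested genes below 0 and 7 (25.9%, against 3.02% of all genes) lower at an unadjusted p under 0.05. They included Srebf2, the regulator of cholesterol synthesis, the pathway enzymes Hmgcs1, Sqle and Fdft1, and Acsbg1 and Elovl5 of fatty acid metabolism. Hmgcs1 was at 154 ± 33.3 CPM (SD, n = 8) in WT and at 125 ± 7.19 CPM (SD, n = 4) in Het (-0.30 ± 0.13). Fdft1 averaged 111 and 83.7 CPM (-0.42 ± 0.13, edgeR adjusted p = 0.590). The summed CPM of the list was 2737 to 3760 in WT and 2585 to 2888 in Het, so the groups overlapped. Without the 5 deep and rare clusters the medians were -0.13 for glutamate and GABA handling and -0.11 for lipid and sterol metabolism.

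Astrocyte identity genes had a median of -0.09, with 22 of 30 tested below 0 and 2 lower at an unadjusted p under 0.05 (6.67%, against 3.02% of all genes). The median was -0.03 with nuclei of other cell type markers left out. The 2 genes were Plpp3 (-0.24 ± 0.11) and Acsbg1 (-0.32 ± 0.14). Radial glial genes had a median of -0.08 over 25 tested, with Hopx, a marker of outer radial glia, at 10.8 against 21.6 CPM (0.94 ± 0.33) and Ccnd2, a cyclin of progenitors, at 398 against 326 CPM (-0.30 ± 0.11). Hopx was a leading gene of cluster 5, at 103 CPM there against 7.71 CPM in the other chosen nuclei, and the part of that cluster's share in its difference was not tested. Genes of potassium, water and gap junctions had a median of -0.15 over 13 tested, where Kcnj10, which encodes the potassium channel Kir4.1, was at 77.3 ± 16.9 CPM (SD, n = 8) against 54.7 ± 2.33 CPM (SD, n = 4). The edgeR adjusted p of Kcnj10 was 0.509.

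Signalling and matrix lists had medians between -0.18 and -0.06. Of 18 Notch pathway genes tested, 14 were below 0 (median -0.18), with Maml1 and Numbl (11.1%, against 3.02% of all genes) lower at an unadjusted p under 0.05. Of 19 genes of FGF and EGF signalling, 18 were below 0 (median -0.14) and none reached that level, Egfr at -0.28 ± 0.15 included. BMP, TGF-beta and LIF signalling had a median of -0.10 over 21 genes, Hedgehog signalling -0.06 over 13, gliogenic transcription factors -0.11 over 29 and matrix and secreted adhesion -0.07 over 27. In the last list Ncan, which encodes the proteoglycan neurocan, differed by -0.31 ± 0.12 and Tnr, which encodes tenascin-R, by 0.28 ± 0.09. Without the 5 clusters the median of the Notch list was -0.10, that of the gliogenic transcription factors -0.04 and that of the radial glial genes 0.00.

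Markers of most other cell types had medians above 0 (Het minus WT). General neuronal genes had a median of 0.12 over 12 genes, with Dcx, a microtubule gene of young neurons, at 144 against 191 CPM (0.40 on the log2 scale) and Stmn2 at 113 against 146 CPM. Their summed CPM was 6427 to 10098 in WT and 7163 to 8823 in Het, against 19565 CPM in excitatory nuclei. Excitatory markers had a median of 0.32 over 8 tested of 12, oligodendrocyte lineage markers 0.17 over 9 of 16, ependymal and choroid plexus markers 0.43 over 4 of 13 (0.05 without cluster 11), endothelial markers 0.41 over 3 of 10 and mural and fibroblast markers 0.12 over 7 of 13 (-0.14 with doublet-like nuclei removed). Without the 5 clusters the medians were 0.43 for general neuronal, 0.20 for excitatory and -0.06 for oligodendrocyte lineage genes. They were 0.25 for endothelial and 0.05 for mural and fibroblast genes. With doublet-like nuclei removed they were 0.31 for general neuronal, 0.50 for excitatory, 0.12 for oligodendrocyte lineage and 0.21 for endothelial genes. Slco1c1, on the endothelial list, was a leading gene of cluster 5 and was seen in 23.6% of thinned chosen nuclei, against 0.187% for Cldn5. Notch3, on the mural and fibroblast list, was seen in 12.2%, so these lists do not measure those cell types alone. The part of RNA from other cell types in the lower astroglial medians was not tested. Of the 11 microglial markers, 8 were under 5 CPM and 1 was tested (-0.45 on the log2 scale). Its difference ranged from -0.57 without WT 7 to -0.21 without WT 8.

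**Figure D5:**
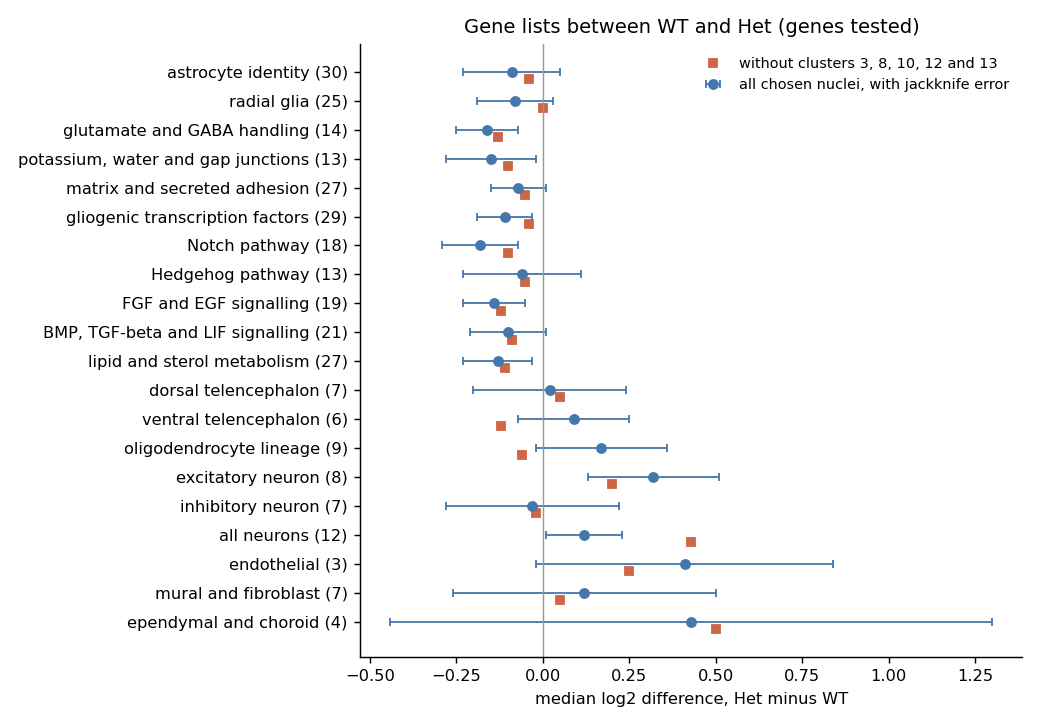
Median log2 difference (Het minus WT) of each gene list, with the number of genes tested. Circles give all chosen nuclei with a jackknife error over the 12 libraries, and squares the nuclei without clusters 3, 8, 10, 12 and 13. The 11 lists from astrocyte identity to lipid and sterol metabolism lie between -0.18 and -0.06 in all chosen nuclei, and the excitatory neuron, all neurons and ependymal lists above 0.

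Single libraries carried much of these medians. The jackknife error over the 12 libraries exceeded the size of the median for astrocyte identity (0.14), radial glial (0.11) and matrix genes (0.08). It also did so for Hedgehog (0.17) and for BMP, TGF-beta and LIF genes (0.11), and was smaller for the other astroglial lists (0.08 to 0.13). Of the other cell types, it did so for oligodendrocyte lineage (0.19), endothelial (0.43), mural and fibroblast (0.38) and ependymal markers (0.87). The astrocyte identity median was -0.01 and the radial glial median 0.00 without WT 8, and lipid and sterol metabolism was -0.07 without WT 4. Without Het 3 the median was -0.05 for potassium, water and gap junctions, -0.10 for Notch and 0.03 for Hedgehog genes. Without Het 2 it was -0.08 for FGF and EGF, -0.03 for BMP, TGF-beta and LIF signalling, -0.06 for gliogenic transcription factors and 0.00 for matrix genes. Glutamate and GABA handling ranged from -0.21 to -0.12. Excitatory markers ranged from 0.18 without Het 3 to 0.41 without Het 1, and general neuronal genes from 0.07 without WT 7 to 0.20 without WT 5. Oligodendrocyte lineage markers ranged from 0.11 without Het 1 to 0.30 without WT 2, and endothelial markers from 0.27 without Het 1 to 0.70 without WT 5. Mural and fibroblast markers ranged from -0.17 without WT 7 to 0.28 without Het 2. Ependymal and choroid plexus markers ranged from 0.26 without Het 2 to 1.25 without Het 4.

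The remaining lists, for dorsal and ventral telencephalon, inhibitory neurons and intermediate progenitors, had medians of 0.02, 0.09, -0.03 and -0.15 over 7, 6, 7 and 1 genes tested. The dorsal and inhibitory medians changed sign with several single libraries left out, and the inhibitory one was 0.31 with nuclei of other cell type markers left out. The ventral median was -0.12 without the 5 clusters, -0.01 without cluster 11 and 0.26 in males only. With single libraries left out it ranged from 0.01 without WT 2 to 0.18 without WT 8. The intermediate progenitor value then ranged from -0.20 without WT 7 to -0.09 without Het 1. Olig2, on the ventral list, averaged 43.3 and 32.3 CPM (-0.41 ± 0.17).

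Whether the genotype difference itself was another in the Veph1 astroglia was tested as an interaction in edgeR with library as a block. None of 6977 genes was called (0%), with 219 at an unadjusted p under 0.05 (3.14%, of which 1.35% had a higher and 1.79% a lower difference in the chosen nuclei), and DESeq2 called 0. With the stricter rule (at least 3 UMIs of Slc1a3 and 5 of the selecting genes) 11 genes were called, 9 of them lower, and with the replicate block on the 4 pairs of libraries 5, all lower. Dach1, with an interaction of 1.04 on the log2 scale, had an edgeR adjusted p of 0.303.

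Sex was read out clearly in the same nuclei. Of 9334 genes, 6 (0.0643%) were called between females and males by edgeR, while 418 (4.48%) reached 0.05 before adjustment, with 2.44% of all genes higher in females and 2.04% lower. Xist, the RNA that silences an X chromosome, was at 396 to 539 CPM in the 4 female libraries and at 0 to 1.55 CPM in the 8 male libraries. Kdm6a, an X-linked gene that escapes silencing, was at 228 to 253 CPM in females and at 147 to 170 CPM in males (0.61 ± 0.09 on the log2 scale), without overlap. The Y-linked genes Uty, Eif2s3y, Kdm5d and Ddx3y were the other four, so every library had the sex given in its label.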

How the data were processed

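Nuclei were barcoded in wells with a Scale Biosciences kit, and the authors deposited 1 matrix of expected counts (UMIs per gene and barcode, not all whole) for each of the 12 libraries; the submitters' processing notes name ScaleRna, mm10 and Seurat 4.3.0. Entries listed at 0 were dropped. No source used here says whether reads were assigned by strand. The study's filter on log genes over log UMIs (0.9) removed 3 further chosen nuclei and was kept as an alternative. Doublets were not removed: the 5% of barcodes per library nearest to simulated doublets were marked, and left out in an alternative. Deposited expected counts were summed over the chosen nuclei of a library, rounded and tested with edgeR 4.0.16 (TMM, filterByExpr, Benjamini-Hochberg over all genes tested, called at adjusted p under 0.05 and a log2 difference of 0.2), with DESeq2 1.42.0 as an alternative. The procedure was tested on simulated data. The planted changes were larger than most differences given here, so that test does not show how smaller ones would be called. Shares and medians were compared by exact permutation of the genotype labels over libraries. For shares of nuclei with a UMI, each nucleus was thinned to 800 UMIs. Levels were set side by side as log2(CPM + 5). Clusters came from Leiden clustering (resolution 0.8, leidenalg 0.10.2) of 15 components of 1500 variable genes. Replicate numbers did not pair libraries: the correlations of 4 same-numbered pairs of WT and Het libraries ranged from -0.08 to 0.04. No 2 libraries of the same genotype agreed within sampling noise.

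The members and the lists were chosen with earlier results of these data known, so no pattern is given as independent support. Genes named were those of the rule, called genes, the 15 with the smallest p that kept their sign with each library left out, up to 5 list members of the highest level, Myt1l and its paralogs, sex genes, the widest gaps to other nuclei and the leading genes of clusters. Other list members were named after their values were seen. Of the paralogs, Myt1 averaged 31.5 CPM in WT and 39.9 CPM in Het (log2 difference 0.37 ± 0.22) and St18 was too low to be tested. Myt1 was a leading gene of cluster 10, at 451 CPM there against 19.1 CPM in the other chosen nuclei. Cluster 10 made up 1.01% to 2.66% of the chosen WT nuclei and 3.9%, 3.92%, 3.77% and 1.79% of those of Het 1 to Het 4. The part of this share in the difference of Myt1 was not tested. A few genes are not reported here.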

Additional observations from a re-analysis of the deposited data

Results flagged for a closer look

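Of 102 groups, each the 8 WT or the 4 Het libraries, checked for a value far from the rest, 7 held one. Chance alone would mark about 1 in 20. Efhb was at 12.3 CPM in Het 1 and at 29.4 to 32.5 CPM in the other Het libraries. Cdon was at 340 CPM in Het 3 and at 243 to 251 CPM in the others. Gm29478 was at 71.1 CPM in WT 1 and at 12.7 to 39.9 CPM in the other WT libraries. St18, a paralog of Myt1l, was at 17.3 CPM in Het 3 and at 5.93 to 6.35 CPM in the other Het libraries. The genes of glutamate and GABA handling summed to 8041 CPM in WT 8 and to 5205 to 6454 CPM in the other WT libraries. Dorsal telencephalon markers summed to 834 CPM in WT 5 against 1033 to 1208 CPM. The endothelial list, which holds Slco1c1, summed to 268 CPM in WT 2 against 402 to 480 CPM.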

How the results depend on the processing

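The difference in the share of nuclei (-0.0213 percentage points, Het minus WT) changed sign under the looser rule (0.257), as a share of both kinds of astroglia (0.174) and with single libraries left out (-0.172 to 0.126); it ranged from -0.298 (stricter rule) to -0.0293 (doublets removed) under the others. That in median UMIs was -83.6 to -11.8 with 1 library left out and 25.9 in males only. The count of 0 genes between genotypes became 1 under the stricter rule (Brinp1), 1 under DESeq2 (Hs6st2), 1 without Het 1 (Efhb; 0 to 1 with each library left out) and 62 with no filter on low counts (58 higher, 4 lower, of 28937). The cause was not tested. The 0 interactions became 11 under the stricter rule, 6 with no filter and 0 to 1 with a library left out (1 without WT 4, 1 without Het 3). The 6 genes between sexes became 44 with no filter and 6 to 12 with a library left out (12 without WT 7). Of 377 comparisons of the 15 genes under these alternatives, 361 kept their side of the threshold, 16 passed it and 0 changed sign. Their choice had fixed the sign where 1 library is left out. Of the 16, all but the calls of Brinp1, Hs6st2 and Efhb given above came with no filter on low counts. Library numbers within a sex gave 4 pairs, with no Het library of the 4 correlating best with its own number. With the replicate block the share of nuclei differed by -0.131 (exact permutation test over pairs, p = 0.75). With 4 pairs, that permutation test could not give a p under 0.05 whatever the values. Under the same block, 0 genes differed between genotypes and the interactions numbered 5. These fits also left out the 4 unpaired WT libraries. For genes between genotypes, the same 4 pairs without the block also gave 0. For the share and the interactions, leaving out those libraries cannot be told apart from the block. Leaving out the deep and rare clusters, or cluster 11, was added after the data were seen and called 0 genes. Without the deep and rare clusters, or without nuclei of other cell type markers, the oligodendrocyte lineage median was -0.06 each, against 0.17. Genes of low UMIs were limited by depth, with 254 nuclei in the smallest library.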
